A study of Mus musculus with 18 samples.

Results

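Autophagy and lysosome genes, 37 in all, were followed through isolated mouse heart cells carrying the Bag3-P209L transgene or wild-type Bag3. They were chosen by name, as core autophagy genes, receptors for selective autophagy and lysosome genes that act downstream of the co-chaperone BAG3. Each of them was found among the 19094 protein-coding genes measured, and all 37 had enough counts to be tested in every comparison.

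Autophagy delivers parts of the cell to the lysosome. The ULK kinase complex starts the process, a lipid kinase complex built on Beclin 1 marks the forming membrane with the lipid PI3P, and ATG9A, ATG2 and WIPI proteins supply and bind that membrane. A conjugation system then couples the ubiquitin-like ATG8 proteins (the LC3 and GABARAP families) to the membrane, where receptors such as p62 dock with their cargo. Lysosomal membrane proteins and cathepsins complete degradation. In striated muscle, BAG3 works with HSPA8 and HSPB8, the ubiquitin ligase STUB1 (CHIP) and SYNPO2 to route damaged contractile proteins to autophagosomes, and the P209L change in human BAG3 causes myofibrillar myopathy.

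RNA came from cardiomyocytes and from cardiac fibroblasts of 6 mice aged 16 months, 3 labelled Bag3-P209L Tg+ (Tg mouse 1 to 3) and 3 labelled Bag3-WT (WT mouse 1 to 3). Each mouse had 2 cardiomyocyte libraries (rep1 and rep2, summed here) and 1 fibroblast library, so each group held 3 mice. The sources used here do not give the promoter that drives the transgene, the species of its sequence or the strain of the mice. Levels are given as CPM, the counts of a gene relative to all nuclear counts of its library, scaled over all 12 columns. A change is called at a Benjamini-Hochberg adjusted p below 0.05 from edgeR's quasi-likelihood test over all nuclear genes, and is given as a log2 fold change with its standard error (SE).

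Nuclear counts were 2261653 to 7793062 per mouse in cardiomyocytes and 11309883 to 15811137 in fibroblasts. The 13 mitochondrially encoded genes took 51.7 to 85.5% of the counts in cardiomyocytes and 16.7 to 39.2% in 5 fibroblast libraries, against 74.2% in the fibroblasts of WT mouse 1. Bag3 itself stood at 165, 129 and 203 CPM in the cardiomyocytes of Tg mouse 1 to 3 and at 343, 124 and 118 CPM in those of WT mouse 1 to 3, so the genotypes overlapped. In fibroblasts it stood at 418, 595 and 230 CPM in Tg and 276, 483 and 403 CPM in WT mice, again with overlap. It is not stated whether transgene reads were counted as Bag3. The labelled cell types were only partly borne out by marker genes. All 10 cardiomyocyte markers were higher in cardiomyocyte libraries, where they summed to 2970 to 7500 CPM against 1160 to 2920 CPM. The 10 fibroblast markers, however, summed to 5310 to 18800 CPM in cardiomyocyte libraries and to 1970 to 6320 CPM in fibroblast libraries. By gene they divided, with 2 higher in cardiomyocyte libraries (Col1a1 at 2.53 and Col1a2 at 1.39) and 1 lower (Tcf21 at −0.98). The other 7 did not pass the test, and the median was −0.3. The 12 macrophage and myeloid markers summed to 5780 to 19600 CPM in fibroblast libraries and to 1180 to 4180 CPM in cardiomyocyte libraries, and all 12 were lower in cardiomyocytes by the test. No marker of these 3 lists was at 0 in any group. Mural cell markers (of smooth muscle and pericytes) passed as higher in cardiomyocyte libraries for 8 of 8 genes (median 1.7), with sums of 869 to 4690 CPM against 330 to 1890 CPM. Of 5 mesothelial markers 4 were higher there and 1 lower (median 2.69), with sums of 34.5 to 930 CPM against 94.3 to 258 CPM. The part of these cells in the cell type differences was not tested. Animal codes hold a letter, F or M, that the labels do not define. The cardiomyocyte libraries of Tg mouse 3 (letter F) held 62 counts of Ddx3y and 172 of Eif2s3y, which are Y-linked, while its fibroblast library held 0 of both. The same cardiomyocyte libraries held 0 counts of Uty and 1 of Kdm5d, also Y-linked. Cardiomyocytes of Tg mouse 1 and WT mouse 1, likewise letter F, held 24 and 19 counts of Eif2s3y and 0 of Ddx3y. Whether the cardiomyocyte and fibroblast libraries of Tg mouse 3 come from 1 animal was not tested. Values without Tg mouse 3 or WT mouse 1 are given below beside the results they move most.

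The promoters of Lamp1, Mcoln1 and Atg3 are shown because they hold the motif by which this gene set is often recognised. TFEB and its relatives bind E-boxes with the core CACGTG, which reads the same on both strands and is found in many lysosomal genes. The following bases come from the 110 bases before the RefSeq gene starts (GRCm38.p6, plus strand), with each CACGTG in capitals. Only the stretch outside GENCODE exons of protein-coding genes is printed. Relative to the RefSeq start it runs from −110 to −1 for Lamp1, to −63 for Mcoln1 and to −45 for Atg3.
Lamp1, chr8:13159051-13159160: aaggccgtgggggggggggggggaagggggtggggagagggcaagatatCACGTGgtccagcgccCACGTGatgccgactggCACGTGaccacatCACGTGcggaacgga
Mcoln1, chr8:3500409-3500456: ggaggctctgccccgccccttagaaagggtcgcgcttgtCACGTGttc
Atg3, chr16:45158719-45158784: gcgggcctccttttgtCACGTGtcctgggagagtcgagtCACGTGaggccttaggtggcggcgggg
Lamp1 held 4 copies of the core between 61 and 15 bases before its start. Mcoln1 and Atg3 held 2 each, and the second copy of Mcoln1, 45 bases before the start, lies in an annotated exon and is not printed.

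RefSeq promoters (250 bases before to 50 after the start) were matched for 31 of the 37 genes. Of these, 9 held CACGTG, which is 29.0%, against 8.09% of 27025 genes: Atg14, Atg3, Atg5, Atg7, Ctsd, Ctsl, Lamp1, Mcoln1 and Retreg1. The longer form TCACGTGA, which contains the core, was in 3 of 31 (9.68%; Atg3, Ctsd and Mcoln1) against 1.12% of all genes. The antioxidant response core TGACNNNGC, searched on both strands, was in 6 of 31 (19.4%) against 14.0% of all genes, and Sqstm1 was not among them in this window. A gene with more than 1 promoter entry was counted if any entry matched. The 27025 genes are all those with an entry, among them genes not measured here, so the members and this background are unlike sets. A match is a description of the letters and not of binding. Among the 9 genes with CACGTG, 4 were lower in cardiomyocytes, 1 was higher and 4 did not pass the test described next, and among the 22 without it 8 were lower.

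Autophagy and lysosome genes differed between the cell types mainly through selective receptors and the lysosome, which were lower in cardiomyocyte than in fibroblast libraries. In the comparison within mice, 13 of the 37 genes were lower in cardiomyocytes, 3 were higher and 21 did not pass the test. Of all 14223 genes tested, 43.7% were called, 24.4% lower and 19.3% higher. The members were called at nearly the same rate, 16 of 37 (43.2%). By direction, 35.1% of the members were lower and 8.11% higher, a split that was not tested against that of all genes. The median log2 fold change was −0.15 over the members and −0.03 over all genes tested. Counted by mouse, 13 members were lower in the cardiomyocytes of all 6 mice (24.1% of all genes) and 3 were higher in all 6 (16.8% of all genes). These are not quite the genes called. Atg14 (lower) and Calcoco1 (higher) went the same way in all 6 mice without a call. Tfeb and Wipi1 were called but went that way in 5. In such bulk RNA, fewer cells of a type and less RNA per cell cannot be told apart. Scaling by library size alone shifted the median of all genes to 0.39 and moved the split of the members to 11 higher and 7 lower. The calls stood at 3 higher and 13 lower without both Tg mouse 3 and WT mouse 1. Without WT mouse 3 they were 0 higher and 12 lower. These alternative counts are given without the shares of all genes called, so they are not set against a background.

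**Figure D1:**
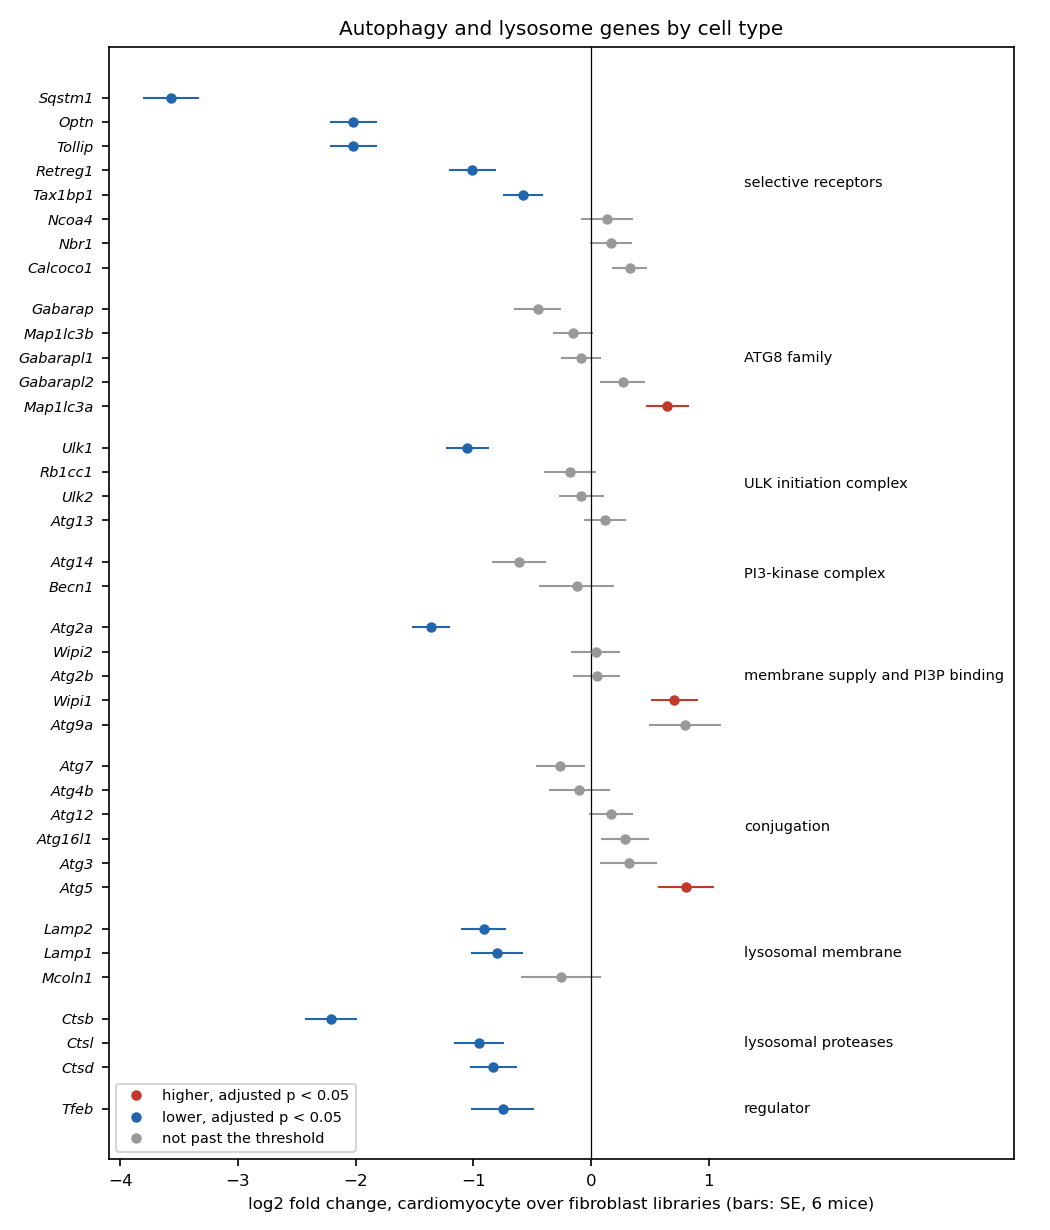
Log2 fold change of each gene, cardiomyocyte over fibroblast libraries (horizontal axis), grouped by role, with bars of 1 SE from the fit over 6 mice. Sqstm1 stands farthest left at −3.57, and the 3 genes higher in cardiomyocytes (Map1lc3a, Wipi1 and Atg5) lie between 0.65 and 0.81.

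Sqstm1 encodes p62, the receptor that gathers ubiquitinated cargo and hands it to LC3. Its level was 339, 540 and 346 CPM in the cardiomyocytes of Tg mouse 1 to 3 and 378, 394 and 379 CPM in those of WT mouse 1 to 3. In fibroblasts it was 3870, 6370 and 2320 CPM in the Tg mice and 5260, 5900 and 5670 CPM in the WT mice. Every fibroblast library lay far above every cardiomyocyte library, and Tg mouse 3 had the lowest fibroblast level. The difference was −3.57 (SE 0.24, adjusted p = 1.34e-06), or 11.9-fold lower in cardiomyocytes, and ranged from −3.90 to −2.74 over the 6 mice. It was −3.69 without Tg mouse 3 and WT mouse 1. The gene lies at chr11:50199366-50210827 (GRCm38, minus strand), where 580 exonic bases overlap Mrnip on the opposite strand. Since the use of strand in counting is not given, reads of such overlapping pairs cannot be told apart.

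Optn and Tollip, which also bind ubiquitin, had the next largest differences among the receptors. Optn, which encodes optineurin, a receptor for damaged mitochondria and bacteria, stood at 15.6 to 24.1 CPM in Tg and 17.9 to 37.1 CPM in WT cardiomyocytes. Its fibroblast levels were 67.2, 105 and 67.3 CPM in Tg mouse 1 to 3 and 116, 89.6 and 111 CPM in WT mouse 1 to 3. The cell types did not overlap, and the difference was −2.02 (SE 0.20, adjusted p = 1.82e-05). Tollip, an endosomal adaptor that also carries aggregates to autophagosomes, stood at 88.4, 69.3 and 50.8 CPM in Tg and 85.8, 85.0 and 58.1 CPM in WT cardiomyocytes, against 233, 340 and 203 CPM and 369, 284 and 344 CPM in fibroblasts. Again every fibroblast library was above every cardiomyocyte library, with a difference of −2.02 (SE 0.20, adjusted p = 2.14e-05).

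The other receptors divided. Retreg1, the endoplasmic reticulum receptor FAM134B, was lower in cardiomyocytes at −1.01 (SE 0.20, adjusted p = 0.00229) and Tax1bp1, an adaptor of p62 condensates, at −0.58 (SE 0.17, adjusted p = 0.0173). Tax1bp1 lost its call without WT mouse 2 (−0.51, adjusted p = 0.062), with library size scaling (−0.16, adjusted p = 0.459) and with the submitters' normalized table (−0.12, adjusted p = 0.748). Retreg1 lost it with that table (−0.41, adjusted p = 0.225). Nbr1, a p62-related receptor for aggregates and peroxisomes, Calcoco1, a receptor of the endoplasmic reticulum and Golgi, and Ncoa4, the ferritin receptor, did not pass the test, at 0.17, 0.33 and 0.14. Of the 8 receptors, then, 5 were lower in cardiomyocytes and 0 higher.

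Values that move with these differences are given here for the cell types as a whole, and their part in the result was not tested. The 8 listed target genes of NRF2, the factor that also drives Sqstm1, summed to 222 to 407 CPM in cardiomyocyte and 3170 to 12600 CPM in fibroblast libraries, with 7 lower and 1 higher (Nqo1) in cardiomyocytes. Hmox1, an NRF2 target induced by heme, was lower by the most of these, at −6.65. Of 10 immediate early genes, which respond within minutes to handling, 9 were lower in cardiomyocytes. The macrophage markers given above were 12 of 12 lower.

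**Figure D2:**
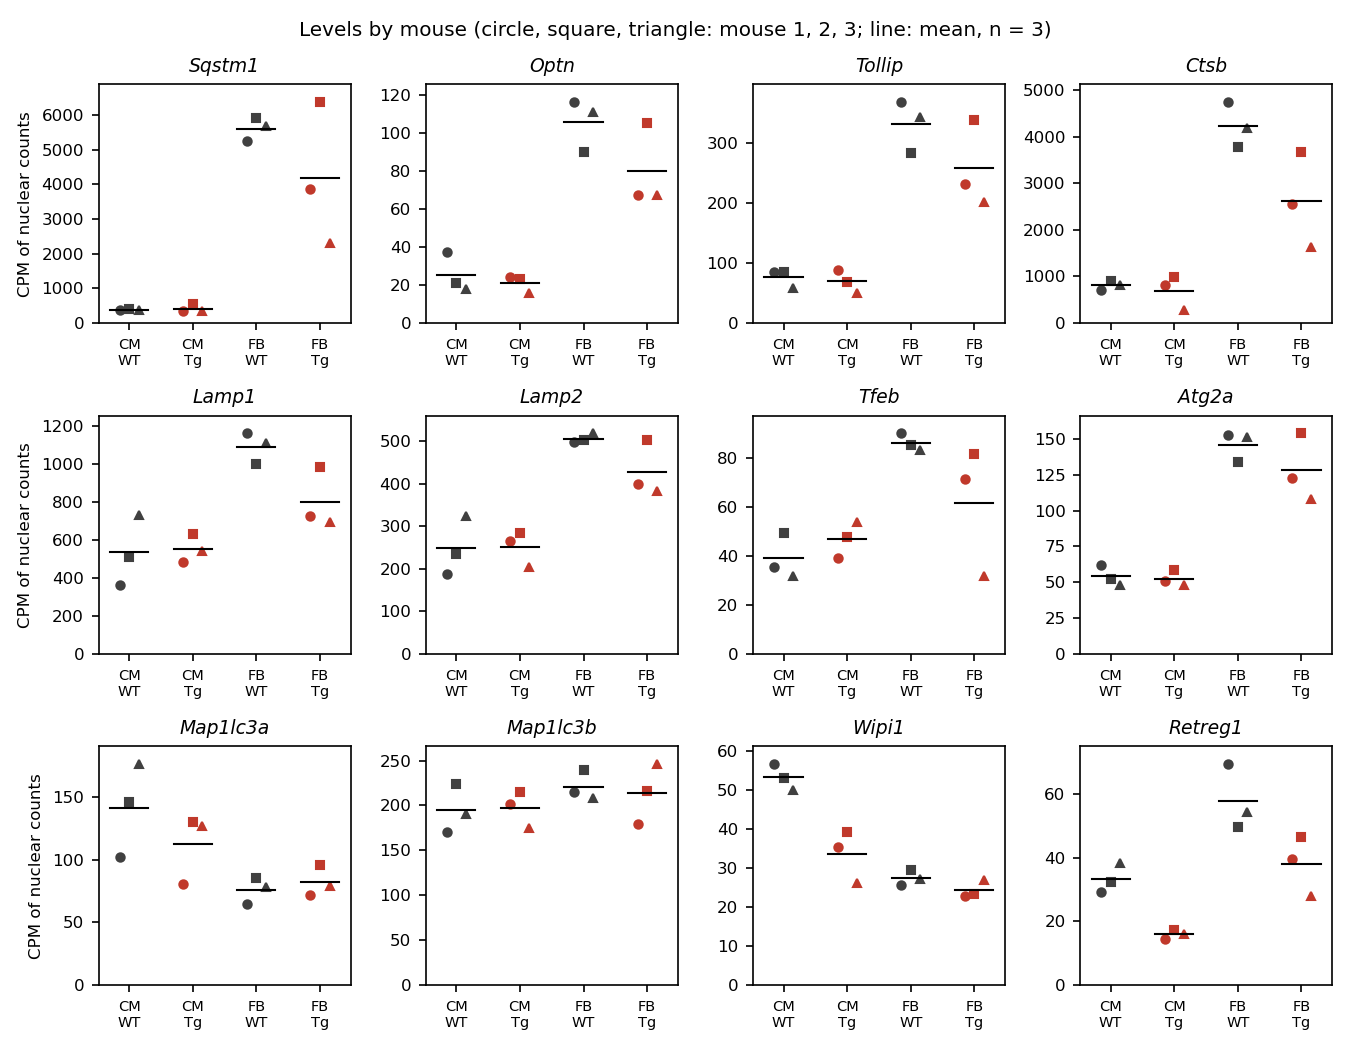
CPM of nuclear counts (vertical axis, from 0) of 12 genes in cardiomyocyte (CM) and fibroblast (FB) libraries of WT and Tg mice; each point is 1 mouse and each line the mean of 3. Sqstm1, Optn, Tollip and Ctsb separate by cell type in every mouse, while Map1lc3b lies between 170 and 246 CPM throughout.

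Of the 5 genes for ATG8 proteins, which coat the autophagosome, 1 passed the test by cell type and 4 did not. Map1lc3b, the LC3 gene most used as an autophagosome marker, stood at 202, 215 and 175 CPM in Tg and 170, 224 and 191 CPM in WT cardiomyocytes, and at 179, 216 and 246 CPM and 215, 240 and 208 CPM in fibroblasts. All groups overlapped, and the difference was −0.15 (SE 0.17, adjusted p = 0.511). Map1lc3a, its paralog LC3A, was the single member of the family to pass, with 80.3, 130 and 127 CPM in Tg and 102, 146 and 176 CPM in WT cardiomyocytes against 71.4, 95.5 and 78.7 CPM and 64.3, 85.4 and 78.4 CPM in fibroblasts. Cardiomyocytes were higher in 6 of 6 mice, although Tg mouse 1 at 80.3 CPM lay within the fibroblast range, with a difference of 0.65 (SE 0.18, adjusted p = 0.0121). The call was lost without WT mouse 3 (0.54, adjusted p = 0.0557). Gabarap, Gabarapl1 and Gabarapl2, which encode the other branch of the family, stood at −0.45, −0.08 and 0.27 and did not pass. Summed over the 5 genes, the family held 620 to 973 CPM in cardiomyocyte and 792 to 943 CPM in fibroblast libraries.

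Of the initiation and nucleation genes 1 passed the test. Ulk1, the kinase that starts autophagy, was lower in cardiomyocytes at −1.05 (SE 0.18, adjusted p = 0.000794). Its paralog Ulk2 and its partners Atg13 and Rb1cc1 (FIP200) stood at −0.08, 0.12 and −0.18 and did not pass. Becn1 (Beclin 1) and Atg14, which direct the lipid kinase to autophagy, stood at −0.12 (SE 0.32) and −0.61 (SE 0.23, adjusted p = 0.055), and Atg14 was lower in 6 of 6 mice. The largest SEs of the 37 were those of Mcoln1 (0.34) and Becn1 (0.32), and 3104 exonic bases of Becn1 overlap Cntd1 on the opposite strand.

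Genes of membrane supply and PI3P binding went both ways. Atg2a, a lipid transfer protein that feeds the growing membrane, stood at 50.8, 58.4 and 47.9 CPM in Tg and 62.0, 52.5 and 48.2 CPM in WT cardiomyocytes, and at 123, 154 and 108 CPM and 153, 134 and 151 CPM in fibroblasts. The cell types did not overlap, and the difference was −1.36 (SE 0.16, adjusted p = 6.94e-05), while its paralog Atg2b stood at 0.05 and did not pass. Wipi1, a PI3P-binding protein, was higher in cardiomyocytes, with 35.3, 39.3 and 26.1 CPM in Tg and 56.6, 53.1 and 49.9 CPM in WT mice against 22.7, 23.3 and 27.0 CPM and 25.6, 29.5 and 27.2 CPM in fibroblasts. The 3 WT cardiomyocyte values stood above all others, Tg mouse 3 was the 1 mouse without a higher cardiomyocyte level, and the difference was 0.71 (SE 0.20, adjusted p = 0.0137). The call was lost without WT mouse 3 (0.67, adjusted p = 0.05), with rep1 alone (0.50, adjusted p = 0.114) and with the submitters' normalized table (0.50, adjusted p = 0.0961). The rep1 libraries held fewer nuclear counts than the rep2 libraries, and the part of depth in the loss with rep1 alone was not tested. Wipi2, its paralog, stood at 0.04. Atg9a, the transmembrane protein of the seed vesicles, stood at 0.80 with an SE of 0.31 (adjusted p = 0.055), close below Atg5, the largest positive value. It ranged from 40.1 to 201 CPM in cardiomyocytes and 41.6 to 58.5 CPM in fibroblasts, and passed in 7 of the alternative analyses, among them DESeq2 (0.81, adjusted p = 0.0257).

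In the conjugation system, Atg5 alone passed. It encodes the protein that joins ATG12 and ATG16L1 into the enzyme for LC3 lipidation, and stood at 27.8, 25.0 and 56.6 CPM in Tg and 24.6, 24.6 and 38.5 CPM in WT cardiomyocytes, against 16.8, 17.8 and 16.6 CPM and 21.4, 17.1 and 17.7 CPM in fibroblasts. The cell types did not overlap, with the highest value in Tg mouse 3, and the difference was 0.81 (SE 0.24, adjusted p = 0.0174). Without Tg mouse 3 it was 0.66 (adjusted p = 0.0162). The call was lost without WT mouse 3 (0.73, adjusted p = 0.0621), with rep1 alone (0.52, adjusted p = 0.168) and with the submitters' normalized table (0.59, adjusted p = 0.0716). As for Wipi1, the part of the lower rep1 depth in the loss with rep1 alone was not tested. Atg3 and Atg7, the E2-like and E1-like enzymes, Atg12, Atg16l1 and the protease Atg4b lay between −0.26 and 0.32 and did not pass.

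All 3 lysosomal proteases and 2 of 3 lysosomal membrane genes were lower in cardiomyocytes. Library size scaling ended the calls of Ctsd (−0.41, adjusted p = 0.141), Ctsl (−0.53, adjusted p = 0.0782), Lamp1 (−0.39, adjusted p = 0.156) and Lamp2 (−0.50, adjusted p = 0.0514), but not that of Ctsb. Ctsb, the cysteine protease cathepsin B, stood at 818, 981 and 283 CPM in Tg and 713, 906 and 808 CPM in WT cardiomyocytes, and at 2560, 3680 and 1630 CPM and 4740, 3780 and 4190 CPM in fibroblasts. Every fibroblast library was above every cardiomyocyte library, Tg mouse 3 was lowest in both cell types, and the difference was −2.21 (SE 0.22, adjusted p = 1.84e-05). Ctsl (cathepsin L) and Ctsd (the aspartic protease cathepsin D) were lower at −0.95 (SE 0.21, adjusted p = 0.0038) and −0.83 (SE 0.20, adjusted p = 0.00589). Ctsd shares 808 exonic bases with Gm49369 on the same strand, so its counts may be split between both.

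Of the lysosomal membrane genes, Lamp2, whose protein is needed for autophagosome fusion and whose loss causes Danon cardiomyopathy, stood at 265, 285 and 205 CPM in Tg and 187, 236 and 324 CPM in WT cardiomyocytes. In fibroblasts it was 399, 502 and 384 CPM and 498, 502 and 519 CPM. The cell types did not overlap, and the difference was −0.91 (SE 0.19, adjusted p = 0.00255). Lamp1, the abundant glycoprotein of the same membrane whose 4 E-box cores are printed above, was lower at −0.80 (SE 0.22, adjusted p = 0.0117), with 361 to 728 CPM in cardiomyocytes and 693 to 1160 CPM in fibroblasts. Mcoln1, the calcium channel TRPML1, stood at −0.25 (SE 0.34) and did not pass; without Tg mouse 3, where its cardiomyocyte level was 112 CPM against 25.3 to 71.9 CPM in the others, it was −0.57 (adjusted p = 0.0427), and with library size scaling it was 0.18.

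Tfeb, the transcription factor that switches on lysosomal and autophagy genes, stood at 39, 47.9 and 53.7 CPM in Tg and 35.5, 49.5 and 32.0 CPM in WT cardiomyocytes. In fibroblasts it was 71.2, 81.8 and 31.9 CPM in Tg mouse 1 to 3 and 90.1, 85.4 and 83.3 CPM in WT mouse 1 to 3. Cardiomyocytes were lower in 5 of 6 mice, and the fibroblasts of Tg mouse 3 fell within the cardiomyocyte range. The difference was −0.75 (SE 0.27, adjusted p = 0.04). Without Tg mouse 3 it was −0.98 (SE 0.17, adjusted p = 0.000857). It lost the call without any 1 of the other 5 mice (−0.75 to −0.63, adjusted p 0.0795 to 0.127) and with library size scaling (−0.32, adjusted p = 0.286).

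Across cell types the protease levels moved with macrophage markers. Summed over Ctsb, Ctsd and Ctsl, the level was 1680, 1840 and 629 CPM in Tg and 1510, 1730 and 1460 CPM in WT cardiomyocytes, beside macrophage marker sums of 2910, 3890 and 1180 CPM and 2590, 4180 and 3790 CPM. In fibroblasts the protease sum was 3600, 5010 and 2460 CPM in Tg and 6240, 5390 and 5650 CPM in WT mice, beside marker sums of 10600, 14200 and 5780 CPM and 19600, 15900 and 16600 CPM. The 6 fibroblast columns had the same order in both sums, and the part of macrophages in the protease levels was not tested.

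**Figure D3:**
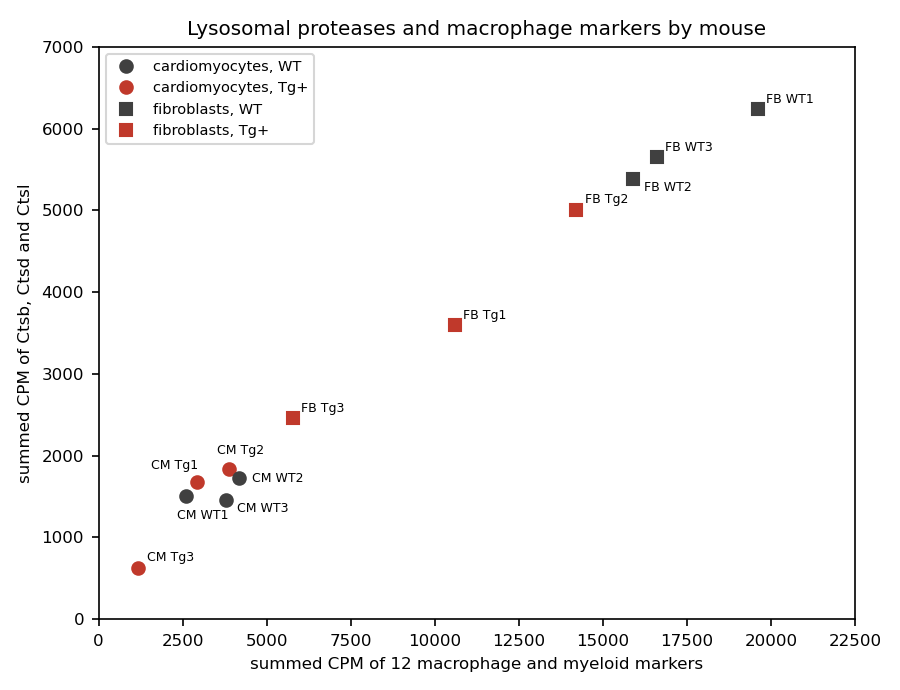
Summed CPM of 12 macrophage and myeloid markers (horizontal axis) and of the 3 cathepsin genes (vertical axis) in each of the 12 columns of mouse and cell type. The fibroblast columns run from Tg mouse 3 (5780 and 2460 CPM) to WT mouse 1 (19600 and 6240 CPM), and the 6 cardiomyocyte columns lie below 4180 and 1840 CPM or at those values.

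Levels of different genes were compared per kilobase of the median length of their coding transcripts (GENCODE M21). In cardiomyocytes the 5 highest were Ctsd at 270 CPM per kb, Gabarapl1 at 253, Lamp1 at 244, Gabarap at 194 and Sqstm1 at 194. These 5 overlapped in their ranges over mice, and Gabarapl1 moved from rank 2 to rank 6 when the longest transcript was used. In fibroblasts Sqstm1 led at 2400 CPM per kb (1140 to 3130 over the mice), above every value of the next gene, Ctsb, at 723 (344 to 999). Ctsd at 476, Lamp1 at 424 and Gabarapl1 at 263 CPM per kb followed. The 3 lowest were the same in both cell types, Atg14, Atg2b and Rb1cc1, at 3.35 to 5.96 CPM per kb in cardiomyocytes and 4.2 to 6.26 in fibroblasts.

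Other genes of the pathway were taken from lists by function. Beside their counts, 24.4% of all 14223 genes tested were lower in cardiomyocytes and 19.3% higher. Of 25 other lysosomal hydrolases and cofactors, 19 were lower in cardiomyocytes and 1 higher (median −1.44). Neu1, a sialidase, stood at −3.57, Gla, alpha-galactosidase A, at −3.44 and Ctss, cathepsin S of myeloid cells, at −2.18, while Ctsk, cathepsin K, was higher at 1.96. Of 17 subunits of the V-ATPase, the proton pump that acidifies the lysosome, 11 were lower and 1 higher (median −1), led by Atp6v1a at −2.83, Atp6v0c at −1.8 and Atp6ap2 at −1.70, with Atp6v0e higher at 0.72. Of 12 other lysosomal membrane proteins, 5 were lower, such as the channel Tpcn2 (−3.09), the leukocyte protein Laptm5 (−2.15) and the cholesterol transporter Npc1 (−1.92), and 2 higher, Laptm4b (0.75) and Laptm4a (0.68).

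Of 24 other autophagy genes, 8 were lower and 5 higher (median −0.37). The lower ones were led by Plekhm1, a tether for lysosome fusion (−1.94), Atg4d (−1.62) and Uvrag (−1.46). The higher ones included Atg101 of the ULK complex (1.02), Pik3c3, the lipid kinase VPS34 itself (0.97), and the PI3P binder Wdr45 (0.93). Of 26 regulators around TFEB, mTORC1, AMPK and FoxO, 9 were lower and 5 higher (median −0.16). The counts of the autophagy genes and of these regulators lay closer to the shares of all genes than those of the hydrolases and V-ATPase subunits. Tfec, a TFEB relative of myeloid cells (−4), and Fnip2 and Fnip1, partners of folliculin (−3.95 and −1.95), were lower. Prkaa2, the AMPK subunit of muscle (1.41), Akt1s1 (0.84) and Lamtor4 (0.68) were higher. Among 6 genes of BAG3-directed autophagy, Stub1 (1.33), Synpo2 (1.25) and Hspb8 (0.93) were higher in cardiomyocytes, and Dnajb6 (−1.62), Bag3 (−1.21) and Hspa8 (−0.93) were lower. All of these named genes passed the test.

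The cell types were also compared in each genotype alone. In WT mice, 11 members were lower in cardiomyocytes and 2 higher, against 15% and 7.66% of all genes (22.7% in either direction). In Tg mice, 7 were lower and 0 higher, against 12.9% and 6.71% (19.6% in either direction). Sqstm1, Optn, Tollip, Ulk1, Atg2a and Ctsb were lower in both. Sqstm1 stood at −3.87 (SE 0.34, adjusted p = 0.000134) in WT and −3.27 (SE 0.33, adjusted p = 0.000257) in Tg mice. Lamp1, Lamp2, Ctsd, Ctsl and Tfeb passed as lower, and Map1lc3a and Wipi1 as higher, in WT mice, and Retreg1 passed in Tg mice. The difference of these differences was itself tested, and 0 of 14223 genes passed (0%), with 138 genes and 0 of the 37 members at an unadjusted p below 0.05. DESeq2 called 1 gene, not a member. The 3 members with the lowest p were Tfeb at 0.85 (SE 0.49), Atg7 at 0.68 (SE 0.41) and Sqstm1 at 0.59 (SE 0.43), each with an adjusted p of 1, so no member was shown to differ between genotypes in its cell type contrast.

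In cardiomyocytes no autophagy or lysosome gene passed the test of Tg against WT. The edgeR test called 0 of 12114 genes (0%), 87 had an unadjusted p below 0.05, and DESeq2 called 3 genes, none of them a member. Of the 37 members, 19 were lower and 18 higher in Tg mice, with a median of −0.01 against 0.01 over all genes. The median SE of the members was 0.34, against 0.19 in fibroblasts, so this comparison was the less precise one.

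Retreg1 had the lowest p. It stood at 14.6, 17.4 and 16.0 CPM in Tg mouse 1 to 3 and at 29.3, 32.5 and 38.5 CPM in WT mouse 1 to 3. The groups did not overlap, and the difference was −1.08 (SE 0.32, edgeR unadjusted p = 0.00843, adjusted p = 1). Wipi1, with the values given above, did not overlap either, at 33.6 ± 6.75 CPM in Tg and 53.2 ± 3.33 CPM in WT mice (SD, n = 3), and stood at −0.69 (SE 0.29, adjusted p = 1). Ulk1 came next, at 65.8, 68.6 and 38.1 CPM against 92.1, 93.2 and 69.3 CPM, a difference of −0.59 (SE 0.33, adjusted p = 1). These were the 3 members lower in every Tg than in every WT mouse, 8.11% of the members against 2.45% of all genes. Gabarapl2, at 65.2 to 68.6 CPM against 46.8 to 62.5 CPM, was the 1 member higher in every Tg mouse, 2.7% against 2.59% of all genes. With library size scaling these counts were 2 (5.41% against 2.08% of all genes) and 0 (against 2.05%). With 1 mouse left out, the lower count ran from 3 (without WT mouse 2, 8.11% against 5.31%) to 5 (without Tg mouse 1, 13.5% against 6.68%). The higher count ran from 1 (without Tg mouse 1, 2.7% against 6.36%) to 5 (without WT mouse 3, 13.5% against 8.11%).

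The genes of most interest to BAG3 biology showed small differences in cardiomyocytes. Sqstm1 stood at 408 ± 114 CPM in Tg and 384 ± 8.9 CPM in WT mice (SD, n = 3), a difference of 0.06 (SE 0.33). Map1lc3b stood at −0.01 (SE 0.29), Lamp2 at −0.01 (SE 0.33) and Tfeb at 0.23 (SE 0.32), all with an adjusted p of 1 and all with overlapping mice. Becn1 at 0.63 (SE 0.60) was the largest positive value, with Tg mouse 3 at 78.0 CPM and the other 5 mice at 10.6 to 39.8 CPM. Without Tg mouse 3 it was −0.10 (SE 0.51).

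In fibroblasts no gene passed either, but more members lay on the lower side in Tg mice. The edgeR test called 0 of 13858 genes (0%), with 699 at an unadjusted p below 0.05, and DESeq2 called 6 genes, none a member. Of the 37 members 26 were lower and 11 higher, against 47.7% of all genes lower, and the median was −0.09 against 0.02. All 8 receptors, all 3 lysosomal membrane genes, all 3 proteases and Tfeb had negative values, none of which passed.

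**Figure D4:**
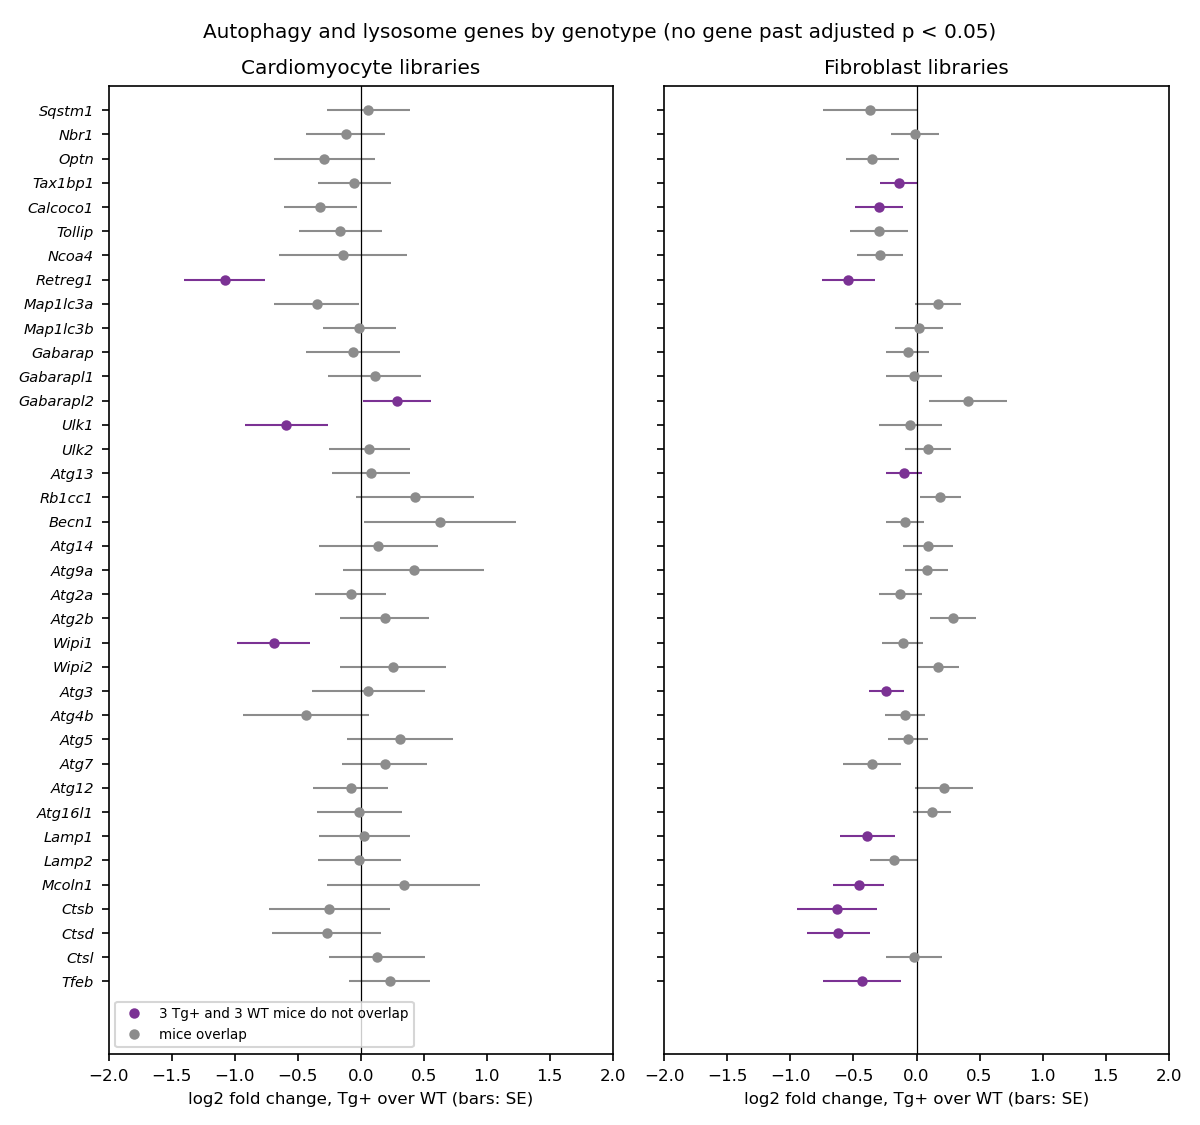
Log2 fold change of the 37 genes, Tg over WT (horizontal axes), in cardiomyocyte and fibroblast libraries, with bars of 1 SE; purple points mark genes whose 3 Tg and 3 WT mice do not overlap. In fibroblasts 10 purple points lie below 0 and none above, and in cardiomyocytes 3 lie below and 1 above.

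The 3 lowest p-values in fibroblasts belonged to Retreg1, Ctsd and Mcoln1. Retreg1 stood at 39.5, 46.6 and 28.0 CPM in Tg and 69.5, 49.8 and 54.4 CPM in WT mice, which did not overlap, a difference of −0.54 (SE 0.21, edgeR unadjusted p = 0.0342, adjusted p = 0.782). Ctsd stood at 749, 955 and 518 CPM against 1230, 1210 and 1120 CPM, also without overlap, at −0.62 (SE 0.25, edgeR unadjusted p = 0.0422, adjusted p = 0.782). Mcoln1 stood at 42.8, 55.8 and 33.1 CPM against 68.5, 57.4 and 62.5 CPM, at −0.46 (SE 0.20, adjusted p = 0.782). Retreg1, the receptor of the endoplasmic reticulum, was thus the 1 member that was lower in every Tg mouse in both cell types. Neither of its differences passed the test, and the share of all genes lower in both was not counted.

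In all, 10 members were lower in every Tg than in every WT fibroblast library, 27% of the members against 9.01% of all genes, and 0 were higher, against 4.12%. They were Atg13, Atg3, Calcoco1, Ctsb, Ctsd, Lamp1, Mcoln1, Retreg1, Tax1bp1 and Tfeb. Without Tg mouse 3 the count was 12 (32.4% against 14.2% of all genes) and without WT mouse 1 it was 13 (35.1% against 11.7%). Without Tg mouse 2, the Tg mouse whose levels lay nearest to WT for Sqstm1, Optn and Ctsb, it was 19 (51.4% against 20.6%). Ctsb had the largest negative value at −0.63 (SE 0.32, adjusted p = 0.782), with 2620 ± 1020 CPM in Tg and 4230 ± 481 CPM in WT mice (SD, n = 3). Sqstm1 stood at 4190 ± 2040 against 5610 ± 319 CPM (SD, n = 3), a difference of −0.37 (SE 0.37) with overlapping mice. Without Tg mouse 3 Ctsb was −0.38, Sqstm1 −0.08 and Tfeb −0.12. Lamp2 was at −0.18 (SE 0.19), Tfeb at −0.43 (SE 0.31) and Map1lc3b at 0.02 (SE 0.19), none with an adjusted p below 0.789.

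The macrophage marker sums of the fibroblast libraries, given above, were also lower in every Tg than in every WT mouse, and all 12 markers had negative values without passing the test. Their part in the lower lysosomal values was not tested. The same holds for the wider lysosome lists, where 24 of 25 other hydrolases and 17 of 17 V-ATPase subunits had negative values, with medians of −0.53 and −0.32 and 0 called. In cardiomyocytes the 12 macrophage markers had negative values too, beside 17 of 25 hydrolases and 11 of 16 tested V-ATPase subunits. The macrophage medians were −0.43 in cardiomyocytes and −0.72 in fibroblasts. The 10 cardiomyocyte markers all had negative values in cardiomyocytes (median −0.62), as did 9 of 10 in fibroblasts (median −0.34). The 8 endothelial markers all had positive values in both cell types (medians 0.29 and 0.42), and 9 of 10 fibroblast markers had positive values in fibroblasts (median 0.29). None of these markers passed the test, and their part in the genotype values was not tested.

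The 2 cardiomyocyte libraries of each mouse, rep1 and rep2, were compared with each other. The labels do not say whether both came from the same cells, so the source of their spread is not known. Every rep1 library held fewer nuclear counts than every rep2 library, so the same CPM stands for fewer counts in rep1. The part of this depth in the differences below was not tested. Of 222 pairs of values (37 genes in 6 mice), 214 lay within 2-fold and 2 were more than 10-fold apart. Both of these were Atg9a, which stood at 4.63 CPM in rep1 and 159 CPM in rep2 of WT mouse 1, and at 3.55 and 76.0 CPM in WT mouse 2. Rb1cc1 followed in WT mouse 3, at 11.8 and 70.6 CPM. With rep1 alone Atg9a had a cell type difference of −0.06, and with rep2 alone 0.95, so its summed value follows rep2.

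**Figure D5:**
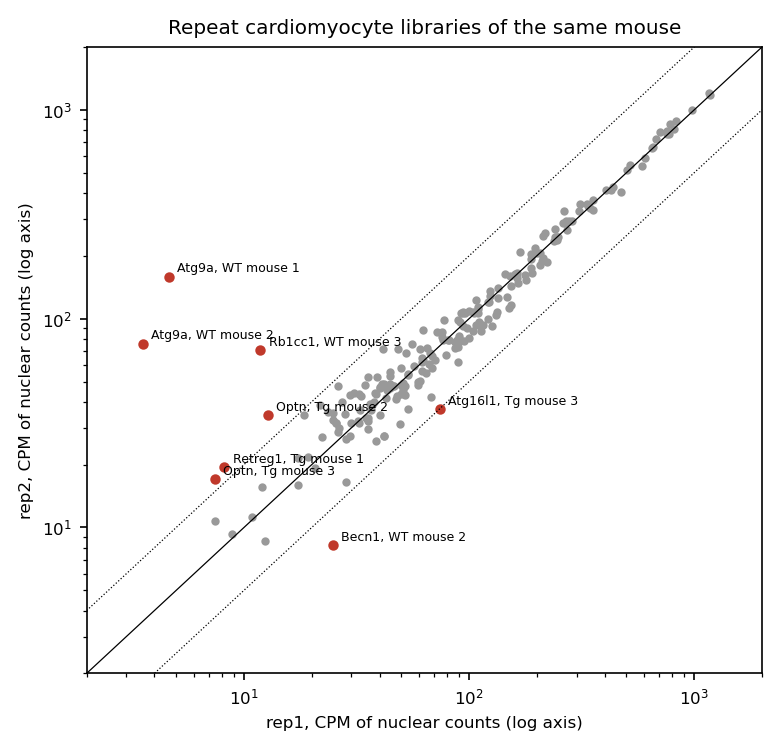
CPM of each of the 37 genes in rep1 (horizontal axis) and rep2 (vertical axis) of each mouse, both on log axes; dotted lines mark 2-fold. Atg9a in WT mouse 1 and WT mouse 2 and Rb1cc1 in WT mouse 3 stand far above the line, and the 5 other labelled values differ 2.01-fold to 3.01-fold.

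The submitters' normalized table treats some of these genes differently from the counts. The ratio of its values to the counts, relative to each library, varied by more than 2-fold between libraries for 13 of the 37 members and for 30.4% of 9749 genes. It varied 27.6-fold for Nbr1, 22.2-fold for Tfeb and 15.1-fold for Atg9a. In that table the cell type difference of Nbr1 became 2.17 (limma, adjusted p = 0.00532), from 0.17, and that of Tfeb became 0.60, from −0.75. Nbr1 also passed on the counts with library size scaling (edgeR, 0.59, adjusted p = 0.0318). The direction of Tfeb depended on the deposited table read. Sqstm1, Optn, Tollip and Ctsb were lower in cardiomyocytes in both.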

How the data were processed

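The members and all gene lists were chosen with earlier results of these data known. Both deposited tables were read. The first holds estimated counts (expected counts) per gene and library as the authors deposited them, of which 44.6% were not whole. The second holds a normalized signal deposited by the authors, the count divided by a factor that differs between genes and libraries, as read from the values, and served only as an alternative. Per the submitters' processing notes, GRCm38.p6 was the build and the tools were R 3.4.4, DESeq2 1.18.1 and kallisto 0.44.0, with no role or order given. Transcript annotation, gene summing, filters and strand were not stated.

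Counts of rep1 and rep2 were summed per mouse and rounded, giving 12 columns from 18 libraries, with the mouse as replicate. The labels mention a second round of sequencing for cardiomyocytes without tying it to rep1 or rep2. The 13 mitochondrially encoded genes were left out of library sizes and tests. The edgeR 4.0.16 quasi-likelihood test (R 4.3.3, filterByExpr, TMM) was fitted over all nuclear genes, two-sided, with Benjamini-Hochberg adjustment. Cell type was tested with the mouse as block, genotype within each cell type (3 against 3), and their interaction in 1 layout. SE is the log2 fold change divided by the root of F. Each comparison shares its libraries with others, and p-values measure the spread between these mice. Alternatives used RLE or library size scaling, no filter, DESeq2 1.42.0, limma 3.58.1 voom, each repeat alone, the letter as covariate, each mouse left out, and the normalized table (log2(value + 1), limma). Leaving out Tg mouse 3 with WT mouse 1, single genotype values without Tg mouse 3, and all alternatives for non-overlapping mice, were chosen after seeing the data. All members called by cell type are named, with values by mouse for the 4 largest in each direction and for Sqstm1, Map1lc3b, Lamp2 and Tfeb. For genotype, the 3 lowest p-values are named, and beyond that rule genes whose mice do not overlap. The scripts were tested on simulated counts. Positions and lengths are from GENCODE M21.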

Additional observations from a re-analysis of the deposited data

Results flagged for a closer look

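The following values were picked out because 1 of 6 mice lay far from the others in its cardiomyocyte minus fibroblast difference of log2 CPM (prior count 1), beyond Dixon's 95% critical ratio for 6 values. Chance picks out about 1 in 20 such groups, and 37 were examined. For Sqstm1, Tg mouse 3 stood at −2.74 and the other 5 mice between −3.90 and −3.51 (ratio 0.663). For Tfeb, Tg mouse 3 stood at 0.75 and the others between −1.38 and −0.77 (ratio 0.716). Both fall on the mouse whose cardiomyocyte libraries hold Ddx3y and Eif2s3y counts that its fibroblasts lack, and whose fibroblasts had the lowest macrophage marker sum. The part of either in these values was not tested.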

How the results depend on the processing

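The count of members called by cell type was 16 and ran from 12 to 18 over all alternatives (12 to 18 when 1 mouse was left out), 14 with rep1 alone and 12 with the normalized table. The counts by genotype in either cell type and in the interaction were 0 throughout. With the repeat number as a replicate block and the mouse as a random effect, the cardiomyocyte genotype count was 0. Repeats of the same number from mice of different genotype had a mean correlation of deviations of 0.0145 over 18 pairs (lowest −0.463, highest 0.42). Repeats of different number were not set beside them, so an effect shared by a repeat number was not tested. Without the mouse as block the cell type count was 17. These cell type counts are given without the shares of all genes called, so they are not set against a background. The count of members lower in every Tg fibroblast library (10) moved when 1 mouse was left out. It ran from 11 without Tg mouse 1 (29.7% against 13.8% of all genes) to 19 without Tg mouse 2 (51.4% against 20.6%). For single genes, 824 values kept direction and call, 21 lost and 19 gained a call, and 57 changed sign; of the latter only Tfeb with the normalized table concerned a called gene, at 0.601, and the cause was not tested.

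The other changes of sign concerned genes that had not passed the test, with log2 fold changes as follows. By cell type, library size scaling gave 0.268 for Map1lc3b, 0.335 for Gabarapl1, 0.337 for Ulk2, 0.232 for Rb1cc1, 0.294 for Becn1, 0.328 for Atg4b, 0.154 for Atg7 and 0.183 for Mcoln1. The normalized table gave −0.12 for Ncoa4, 0.335 for Gabarapl1, 0.16 for Rb1cc1, −0.074 for Atg2b and 0.36 for Atg4b. Without Tg mouse 3 and WT mouse 1, Map1lc3b was 0.013, Gabarapl1 0.069, Atg2b −0.079, Wipi2 −0.24 and Atg4b 0.089. With rep1 alone Atg9a was −0.063 and Wipi2 −0.029, with rep2 alone Atg2b was −0.027, and with no replicate block Becn1 was 0.049. With 1 mouse left out, Ncoa4 ranged from −0.003 to 0.372, Gabarapl1 from −0.141 to 0.011, Ulk2 from −0.132 to 0.032, Becn1 from −0.355 to 0.175, Atg2b from −0.038 to 0.143, Wipi2 from −0.083 to 0.141 and Atg4b from −0.219 to 0.177.

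By genotype in cardiomyocytes, Map1lc3b was 0.014 with RLE scaling, with DESeq2 and with rep1 alone, 0.023 with no filter, 0.066 with the letter as covariate, 0.001 with the replicate block and 0.026 with the normalized table. Lamp2 was 0.013 with RLE scaling and with DESeq2, 0.007 with library size scaling, 0.018 with no filter, 0.008 with voom, 0.101 with rep1 alone, 0.143 with the letter and 0.03 with the replicate block. Sqstm1 was −0.025 with rep1 alone. With 1 mouse left out Sqstm1 ranged from −0.167 to 0.189, Map1lc3b from −0.093 to 0.127 and Lamp2 from −0.169 to 0.199. Map1lc3b ranged from −0.107 to 0.147 by genotype in fibroblasts and from −0.059 to 0.17 in the interaction, where library size scaling gave −0.051. The median SE of the members was 0.34 by genotype in cardiomyocytes, 0.19 in fibroblasts and 0.42 in the interaction; the part of depth in this was not tested.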
